A study of Mus musculus with 40 samples.

Results

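The genes examined here encode surface proteins that place mouse bone marrow B lineage cells in the fractions of the Hardy scheme. They are Ptprc (B220 and CD45), Spn (CD43), Cd24a (CD24), Enpep (BP-1), Kit (CD117), Cd93 (AA4.1), Il2ra (CD25), Cd2, Cd38 and Bst1 (BP-3). They were chosen by name, and each of the 10 matched 1 row among the 21958 genes of the count table. RNA was counted by Smart-seq2, a full-length poly(A) RNA method for few cells, in 40 libraries of 100 sorted cells each. Lethally irradiated CD45.1 hosts had received marrow from P198A/P198A mutant mice, made with CRISPR/Cas9, or from WT mice, and were taken after 8 weeks. The labels name the allele and not its gene, which is known from the study as Slc39a7, encoding the zinc transporter ZIP7. There were 5 mutant chimeras (mice 4, 5, 8, 9 and 10) and 5 WT chimeras (mice 1, 2, 3, 6 and 7), and each gave 1 library of FrB (pro-B), FrC, FrD (late pre-B) and FrE (immature). All groups were sorted as CD45.1-CD45.2+ donor cells, so the hosts' own CD45.1 cells were gated out. Ages of the mice were not given in the sources used here. Titles write KO for the mutants, yet the change is missense and RNA of Slc39a7 cannot check it. That RNA spanned 0 to 268 CPM over the mutant libraries and 2.15 to 343 CPM over the WT libraries.

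In the Hardy scheme a committed pro-B cell carries B220, CD43 and CD24. It gains BP-1 as it begins to signal through the pre-B cell receptor, and then loses CD43 as a small pre-B cell. Surface IgM marks the immature B cell. KIT, the receptor for stem cell factor, is a pro-B marker, and CD25 and CD2 appear on pre-B cells after a heavy chain has been made. CD93 is carried by developing B cells and lost on maturation. The labels describe FrB as B220+CD43+CD24+BP1-, FrE as B220+CD43-IgM+IgD- and FrD as B220+CD43-IgM-IgD-. For FrC a gate was not given in the sources used here. Ighm and Ighd are not analysed here. The question put to each gene was how its RNA lay across the 4 fractions, how that lay against the gates, and whether the mutants differed from WT.

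Promoter sequence is shown for Enpep and Il2ra, which were called lower in WT FrE than in WT FrD and whose upstream window lies outside their annotated transcripts. The sequences are the 250 bases before the RefSeq start, on the gene's strand (GRCm38.p6; RefSeq), from a table that matched 6 of the 10 genes. The Enpep window is chr3:129332750-129332999 on the minus strand and the Il2ra window is chr2:11642542-11642791 on the plus strand. Capitals mark a match to the STAT motif TTCNNNGAA.
Enpep: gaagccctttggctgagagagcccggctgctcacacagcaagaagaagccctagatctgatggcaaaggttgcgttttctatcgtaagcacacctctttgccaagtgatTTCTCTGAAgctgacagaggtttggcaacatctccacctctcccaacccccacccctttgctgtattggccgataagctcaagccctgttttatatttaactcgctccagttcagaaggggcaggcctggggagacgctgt
Il2ra: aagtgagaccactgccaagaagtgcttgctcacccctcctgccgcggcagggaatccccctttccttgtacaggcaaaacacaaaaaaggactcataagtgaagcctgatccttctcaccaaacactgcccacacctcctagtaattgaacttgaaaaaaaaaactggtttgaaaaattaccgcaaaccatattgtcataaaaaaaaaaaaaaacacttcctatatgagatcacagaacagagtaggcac
The Enpep window holds 1 STAT match, at bases -141 to -133 from the start, and the Il2ra window holds none. IL-7, a growth factor of early B cells that signals through STAT5, is known to raise BP-1. Neither window matched CCCNNGGG (EBF1) or CAGNTG (E-box), all motifs being searched on both strands. Among 32851 promoter windows of the same length 7.02% held the STAT motif, 11.82% the EBF1 motif and 44.82% the E-box. Base composition differed, with 52.4% G and C in the Enpep window and 42.4% in the Il2ra window.

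Library totals ran from 42111 counts in FrE of mutant mouse 9 to 43372070, around a median of 16474388.5, and the next smallest held 1723215. Libraries in which more than 15% of detected genes had just 1 to 9 counts are called low-complexity libraries, and there were 10. Among mutants these were mice 4, 8, 9 and 10 in FrB, mice 5, 9 and 10 in FrC and mouse 9 in FrE. Among WT they were mouse 3 in FrD and mouse 7 in FrE. In FrB this left mutant mouse 5 as the sole mutant library without that feature, so values without these libraries are given beside a result where its call differs. The 7 B lineage markers were detected in every group. Their summed level was 323.8 to 18133 CPM over the mutant libraries and 4190 to 23604 CPM over the WT libraries, with the lowest value in FrC of mutant mouse 9. Over all 40 libraries the summed levels of the other lists spanned 32.7 to 74855 CPM for granulocytes and monocytes, 7.06 to 1630 CPM for T cells, 0.245 to 436 CPM for NK cells and 43.5 to 10319 CPM for plasmacytoid dendritic cells. For erythroid cells they spanned 10.6 to 80313 CPM and for basophils and mast cells 0 to 7713 CPM. The plasmacytoid dendritic list includes Ly6d, which is also a surface gene of B cell stages. In 100-cell libraries fewer cells of a type and less RNA per cell cannot be told apart.

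**Figure D1:**
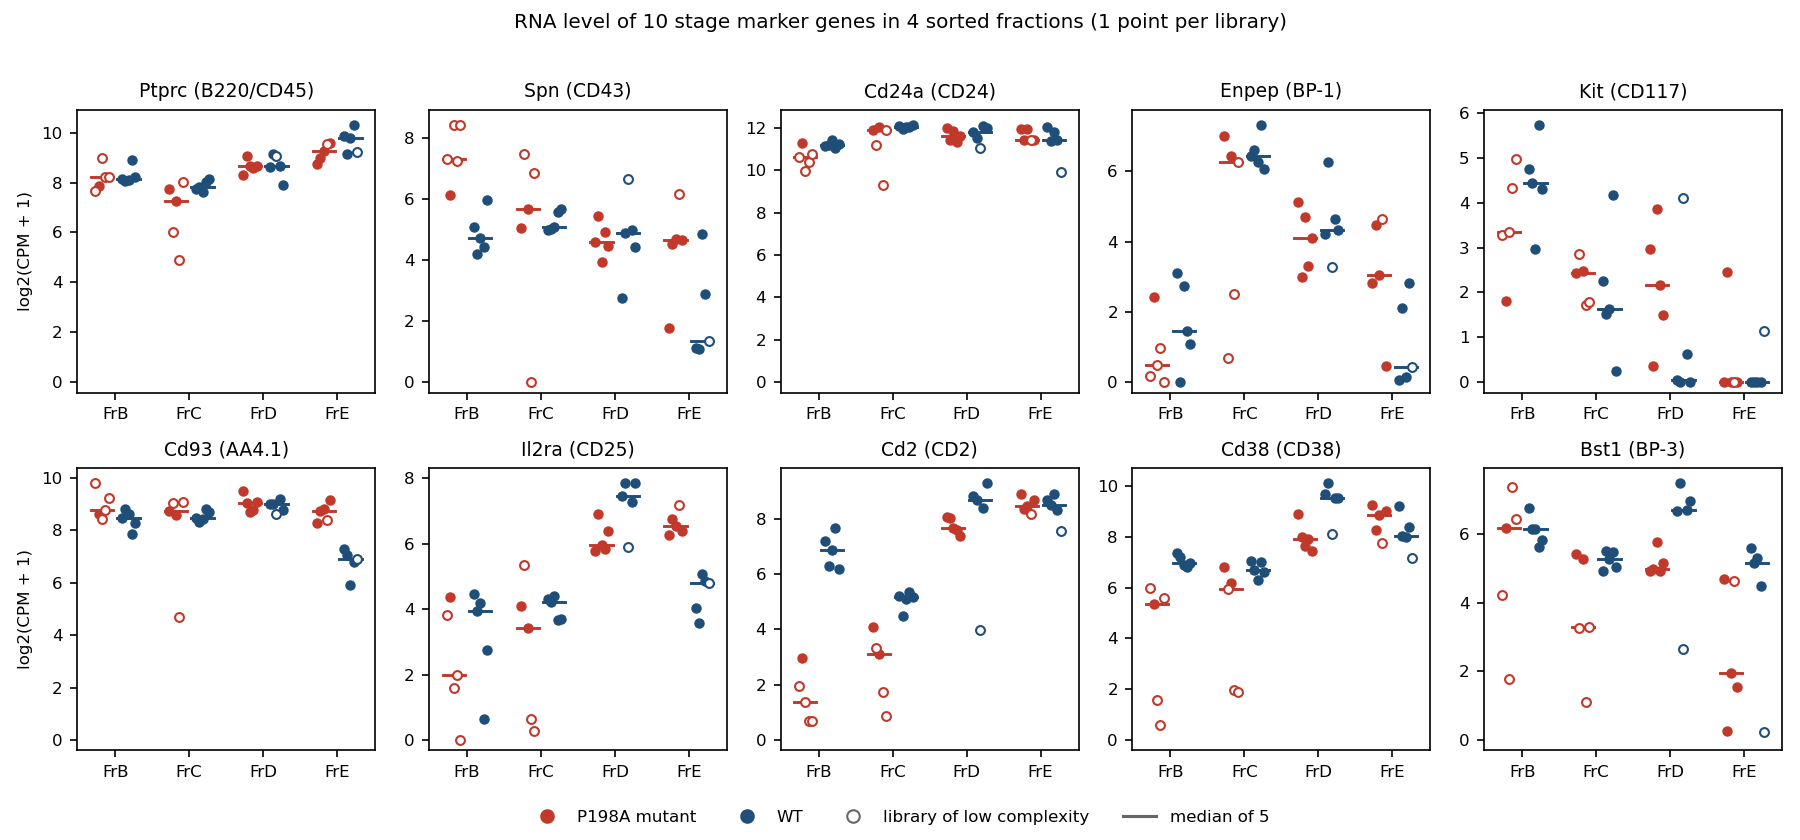
RNA level of the 10 genes as log2(CPM + 1) in FrB, FrC, FrD and FrE, mutant (red, left) and WT (blue, right). Each point is 1 library, open points are low-complexity libraries, and bars are medians of 5 libraries. Cd2 stood at 0.619 to 6.89 CPM in mutant FrB and at 71.2 to 201 CPM in WT FrB.

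Per kilobase of exon Cd24a had the highest mean level of the 10 genes in each of the 8 groups, from 636 CPM per kb in mutant FrB to 1648 CPM per kb in WT FrC. The lowest of the 10 in WT FrB was Enpep, at 0.683 CPM per kb, and in WT FrC, FrD and FrE it was Kit, at 0.557, 0.379 and 0.0274 CPM per kb. In the mutants too the lowest gene was Enpep in FrB, at 0.249 CPM per kb, and Kit in FrC, FrD and FrE, at 0.451, 0.58 and 0.101 CPM per kb. Cd2, whose product is an adhesion receptor of the immunoglobulin superfamily, was the second highest in WT FrB at 70.5 CPM per kb but in mutant FrB, at 1.45 CPM per kb, it lay below all but Il2ra and Enpep.

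**Figure D2:**
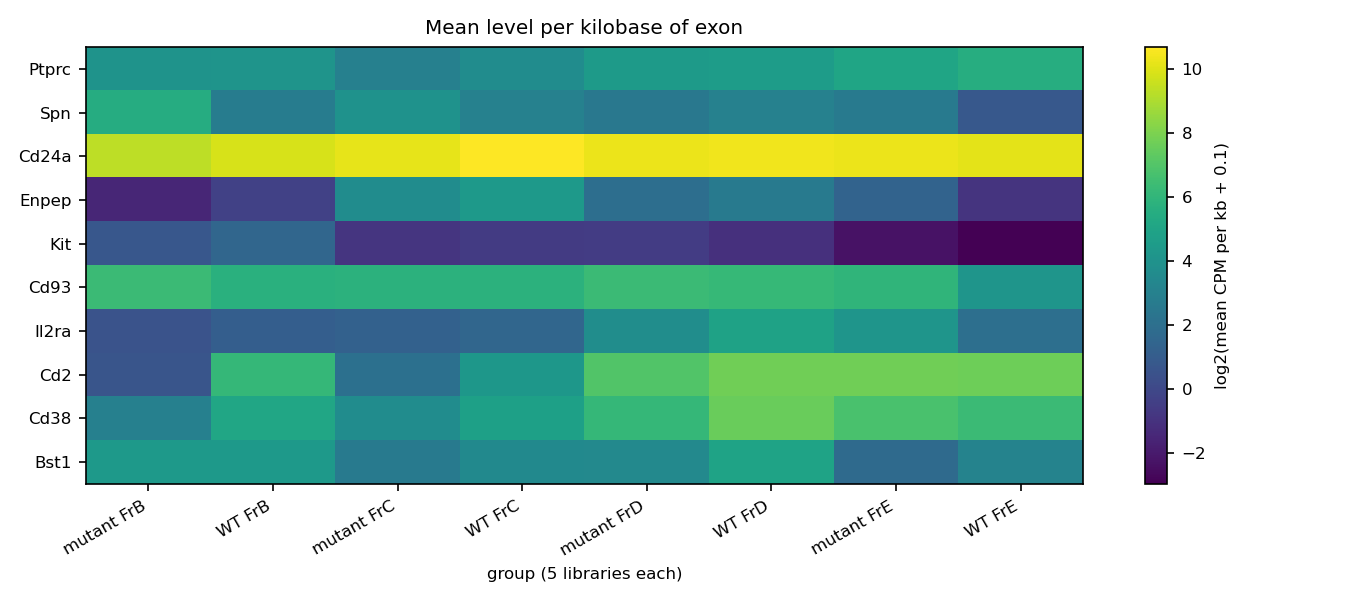
Mean level of each gene as log2(mean CPM per kb of exon + 0.1), with genes in rows, mutant groups beside WT groups of the same fraction in columns, and 5 libraries to a group. Cd24a is the brightest row, and Enpep is brighter in FrC than in the other fractions.

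Ptprc (ENSMUSG00000026395, chromosome 1, 138062861 to 138175708, minus strand, GRCm38, as for all genes here) encodes the CD45 phosphatase, of which B220 is the long isoform on B cells. The gates used its product as B220 and again as the CD45.1 and CD45.2 alleles, and counts per gene do not separate isoforms or alleles. In the mutants it averaged 305 ± 118, 144 ± 97.8, 407 ± 80.2 and 608 ± 147 CPM in FrB, FrC, FrD and FrE. In WT it averaged 317 ± 87.0, 234 ± 34.3, 428 ± 131 and 843 ± 281 CPM (SD, n = 5 each). Every group was B220+ by its gate where the gate is given, and RNA was detected in all 40 libraries, with FrE highest and FrC lowest in mean in both genotypes.

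Spn (ENSMUSG00000051457, chromosome 7, 127132232 to 127137823, minus strand) encodes the sialoglycoprotein CD43, positive in the FrB gate and negative in those of FrD and FrE. Its RNA did not separate WT FrD from WT FrB. WT FrD had 5.80, 28.6, 101.2, 31.0 and 20.5 CPM (mice 1, 2, 3, 6 and 7), against 33.2, 17.4, 25.5, 20.4 and 62.4 CPM in WT FrB of the same mice. The values overlapped, and the highest of the 5 in FrD was the low-complexity library of mouse 3. Without low-complexity libraries the log2 fold change of FrD over FrB was -0.51 (edgeR adjusted p = 0.721). WT FrE had 1.16, 1.15, 27.9, 6.48 and 1.57 CPM, mouse 3 being the high one. In the mutants FrD had 23.1, 43.1, 14.5, 29.3 and 21.3 CPM (mice 4, 5, 8, 9 and 10), against 158, 68.8, 341, 150.1 and 343 CPM in FrB, with no overlap, as for 7.23% of genes. That difference was -3.51 ± 0.84 (log2, SE, adjusted p = 0.0427). It was -3.41 with mouse as a block (adjusted p = 0.0692) and -1.37 without low-complexity libraries (adjusted p = 1). It was also not called without mutant mouse 4 (-3.63, adjusted p = 0.225), mouse 8 (-2.82, adjusted p = 0.304) or mouse 10 (-3.19, adjusted p = 0.165).

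Cd24a (ENSMUSG00000047139, chromosome 10, 43578284 to 43584265, plus strand) encodes CD24, a small glycoprotein anchored by lipid that rises in pro-B cells. The mouse genome holds related copies of this gene, so its counts are uncertain where reads could be shared. The mutants averaged 1642 ± 576, 2954 ± 1487, 3263 ± 641 and 3255 ± 674 CPM in FrB, FrC, FrD and FrE, and WT averaged 2387 ± 222, 4252 ± 196, 3445 ± 919 and 2850 ± 1237 CPM (SD, n = 5 each). WT FrC lay above WT FrB without overlap, at 3955 to 4495 CPM against 2138 to 2726 CPM. The low mutant FrC mean includes 635 CPM in the low-complexity library of mouse 9.

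Enpep (ENSMUSG00000028024, chromosome 3, 129269175 to 129332720, minus strand) encodes the glutamyl aminopeptidase BP-1, which the FrB gate excluded. In mutant FrB it had 0.120, 4.37, 0.401, 0.953 and 0 CPM (mice 4, 5, 8, 9 and 10), and in WT FrB 7.59, 0, 5.64, 1.73 and 1.11 CPM (mice 1, 2, 3, 6 and 7). Mutant FrC had 126.7, 0.627, 84.8, 4.64 and 75.9 CPM, and WT FrC had 85.8, 96.3, 75.6, 158 and 65.8 CPM. In mean, RNA was lowest where the gate was BP1-, together with WT FrE. The low FrC values of mutant mice 5 and 9 came from low-complexity libraries, while that of mouse 10, also low in complexity, lay among the others. FrD averaged 18.1 ± 11.2 CPM in mutants and 28.9 ± 26.4 CPM in WT, and FrE 11.8 ± 10.2 CPM in mutants and 1.98 ± 2.68 CPM in WT (SD, n = 5 each). The mutant FrE mean includes 23.7 CPM read from 1 count in the low-complexity library of mouse 9, and was 8.78 CPM without that library.

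Kit (ENSMUSG00000005672, chromosome 5, 75574916 to 75656722, plus strand) was low throughout. FrB averaged 14.0 ± 10.9 CPM in mutants and 24.8 ± 16.7 CPM in WT, and FrC 4.02 ± 1.64 and 4.97 ± 6.79 CPM (SD, n = 5 each). In FrD the mutants had 6.84, 0.276, 13.5, 3.46 and 1.82 CPM and WT had 0.0406, 0, 16.3, 0.543 and 0 CPM, so that the WT mean rests on mouse 3. In FrE it was at 0 in 4 of 5 libraries of each genotype, the others being mutant mouse 5 at 4.51 CPM and WT mouse 7 at 1.22 CPM, and it did not reach the count filter of the genotype test there. Cd93 (ENSMUSG00000027435, chromosome 2, 148436640 to 148443563, minus strand), a C-type lectin-like receptor, averaged 535 ± 225, 379 ± 209, 531 ± 119 and 419 ± 104 CPM in mutant FrB, FrC, FrD and FrE. In WT it averaged 350.1 ± 82.9, 376 ± 53.6, 490 ± 74.5 and 117 ± 35.9 CPM (SD, n = 5 each).

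Il2ra (ENSMUSG00000026770, chromosome 2, 11642807 to 11693193, plus strand), the alpha chain of the IL-2 receptor, averaged 7.60 ± 8.52, 13.2 ± 16.05, 74.7 ± 27.4 and 100.1 ± 26.4 CPM in mutant FrB, FrC, FrD and FrE. In WT it averaged 11.8 ± 8.43, 16.01 ± 3.98, 169 ± 70.3 and 22.7 ± 9.06 CPM (SD, n = 5 each). The highest mean was thus in FrE in mutants and in FrD in WT. Cd2 (ENSMUSG00000027863, chromosome 3, 101275899 to 101287939, minus strand) averaged 2.53 ± 2.61, 7.14 ± 5.97, 218 ± 43.3 and 370.3 ± 73.3 CPM in the mutants and 123 ± 53.4, 33.2 ± 6.84, 368 ± 224 and 349 ± 106 CPM in WT. The mean was lowest in FrB in the mutants and in FrC in WT.

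Cd38 (chromosome 5, 43868553 to 43912375, plus strand, ENSMUSG00000029084) and Bst1 (43818885 to 43843986, plus strand, ENSMUSG00000029082) are neighbouring, related genes for ADP-ribosyl cyclases, enzymes that turn NAD into calcium-mobilising messengers. Cd38 averaged 30.3 ± 27.7, 50.0 ± 47.2, 268 ± 122 and 422 ± 159 CPM in mutant FrB, FrC, FrD and FrE, and 132 ± 22.0, 106 ± 22.0, 737 ± 300 and 316 ± 167 CPM in WT. Bst1 averaged 68.8 ± 64.7, 19.8 ± 18.9, 35.6 ± 10.2 and 10.7 ± 12.4 CPM in the mutants and 70.6 ± 23.1, 37.3 ± 6.65, 103 ± 62.8 and 28.4 ± 18.3 CPM in WT (SD, n = 5 each). In WT the mean of each was highest in FrD, while in the mutants that of Cd38 was highest in FrE and that of Bst1 in FrB. The mutant FrE mean of Bst1 includes 23.7 CPM read from 1 count in the low-complexity library of mouse 9.

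In FrB the mutants had less Cd2 RNA and more Spn RNA than WT. Cd2 had 2.89, 6.89, 1.61, 0.635 and 0.619 CPM in mutant mice 4, 5, 8, 9 and 10, against 146, 77.5, 117, 201 and 71.2 CPM in WT mice 1, 2, 3, 6 and 7. Each mutant library lay below each WT library, mouse 5 included. Its log2 fold change was -5.42 ± 0.80 (SE, edgeR quasi-likelihood test with Benjamini-Hochberg adjustment, adjusted p = 0.00396), and it was called under all 17 alternatives tried, with adjusted p up to 0.0300. Without low-complexity libraries it was -4.23 (adjusted p = 0.0115), with the single mutant library assumed to vary like the WT ones. Spn had 158, 68.8, 341, 150.1 and 343 CPM in the mutants, against 33.2, 17.4, 25.5, 20.4 and 62.4 CPM in WT, again without overlap, though mutant mouse 5 at 68.8 CPM stood close to WT mouse 7 at 62.4 CPM. Its log2 fold change was 3.22 ± 0.61 (SE, adjusted p = 0.00767), and 1.07 without low-complexity libraries (adjusted p = 0.442). These were 2 of 10 genes called, where 7.37% of all 10562 genes tested were called, 5.64% higher and 1.72% lower. The median log2 fold change of the 10 genes was -0.38, beside 0.11 over all genes tested.

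Cd38 was also lower in every mutant FrB library, at 61.9, 39.7, 2.01, 0.530 and 47.3 CPM against 163, 146, 118, 110.0 and 123 CPM in WT. The fit gave -1.96 ± 0.85 (SE, adjusted p = 0.176). Without low-complexity libraries the value was -1.79, with mouse 5 as the single mutant library, so that fit holds no spread among mutants. The CPM of the groups did not overlap for 3 of the 10 genes, Spn, Cd2 and Cd38, as for 12.7% of all genes tested. Cd93 stood at 0.92 ± 0.31 (SE, adjusted p = 0.0843), and 1.10 without mutant mouse 5 (adjusted p = 0.0184). Sums of the marker lists in FrB, the B lineage list included, are given here as ranges over libraries. The 8 plasma cell markers, all detected in both groups, summed to 980 to 12914 CPM in mutants and 17962 to 53370 CPM in WT. The 4 markers of mature recirculating B cells in the table, all detected, summed to 111 to 404 CPM in mutants and 433 to 520 CPM in WT. The 12 of granulocytes and monocytes, all detected, summed to 2574 to 58680 CPM in mutants and 128 to 11508 CPM in WT, with overlap. The 7 of the B lineage summed to 1523 to 4344 CPM in mutants and 6535 to 8063 CPM in WT. Their part in the Cd2, Cd38 and Spn values was not tested.

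In FrC edgeR called 0 of the 10 genes between genotypes, as it did 0% of 10299 genes, and DESeq2 called 0 of the 10. Cd2 was the 1 gene at an unadjusted p under 0.05, beside 11.3% of all genes. It had 15.8, 9.09, 7.63, 2.32 and 0.824 CPM in mutant FrC, against 36.1, 21.6, 33.4, 39.5 and 35.2 CPM in WT FrC. The groups did not overlap, which held for 2.36% of genes tested. The log2 fold change was -1.66 ± 0.74 (SE, adjusted p = 0.401). The 7 B lineage markers summed to 324 to 5982 CPM in mutant FrC and 5313 to 6464 CPM in WT FrC. The 4 of mature recirculating B cells, all detected, summed to 12.8 to 267 CPM in mutants and 276 to 405 CPM in WT. The 6 of plasmacytoid dendritic cells, all detected, summed to 43.5 to 396 CPM in mutants and 464 to 575 CPM in WT. That list includes Ly6d, which is also among the further surface genes of B cell stages below. Ly6d stood at -1.52 ± 0.55 (log2, SE, edgeR adjusted p = 0.285) in this contrast. Mutant mouse 9 had 80313 CPM of erythroid markers and mutant mouse 5 had 30106 CPM of granulocyte and monocyte markers, both in low-complexity libraries. The part of these lists in the Cd2 value was not tested.

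In FrD, sorted as late pre-B cells, the genes for CD25, CD38 and BP-3 had lower means in mutants. Cd38 had 478, 256, 198.2, 238 and 171 CPM in mutants and 830.4, 1106, 275, 731 and 744 CPM in WT. The groups overlapped through 1 library of each, mutant mouse 4 and the low-complexity library of WT mouse 3. The log2 fold change was -1.58 ± 0.36 (SE, adjusted p = 0.296) and, without WT mouse 3, -1.74 (adjusted p = 0.0272). Il2ra had 54.1, 119.6, 61.7, 56.0 and 82.1 CPM in mutants and 176, 228.5, 58.4, 154 and 229.7 CPM in WT, again with WT mouse 3 low. Its log2 fold change was -1.34 ± 0.37 (SE, adjusted p = 0.518), and -1.51 without WT mouse 3 (adjusted p = 0.0403). Bst1 had 29.5, 30.6, 53.3, 29.3 and 35.1 CPM in mutants and 101.5, 179, 5.34, 102.7 and 125 CPM in WT, so that WT mouse 3 lay below all the mutants and the other WT libraries above them. It stood at -1.65 ± 0.61 (SE, adjusted p = 0.871), and at -1.94 without that library (adjusted p = 0.0198). So edgeR called 0 of the 10 genes with all libraries, where 0.00996% of 10043 genes were called, and 3 without WT mouse 3, where the share of all genes is not given here. Unadjusted, these 3 passed 0.05, beside 5.28% of all genes, and DESeq2 called Il2ra and Cd38. The median was -0.83 over the 10 genes, 9 of them below 0, beside -0.07 over all genes tested. The groups overlapped for all 10, and 2.19% of genes tested did not overlap. Cd2 too had a lower mean in mutants, at 218 CPM against 368 CPM in WT. It had 167 to 264 CPM in mutants, against 335 to 627 CPM in WT mice 1, 2, 6 and 7 and 14.8 CPM in WT mouse 3. By edgeR it was not called with or without WT mouse 3. In FrD marker sums of other cells differed between mutants and 4 of 5 WT libraries. The 12 of granulocytes and monocytes, all detected, summed to 11821 to 22879 CPM in mutants, against 46.3 to 8431 CPM in WT mice 1, 2, 6 and 7 and 74855 CPM in WT mouse 3. The 7 of the B lineage, all detected, summed to 7358 to 9517 CPM in mutants, against 13562 to 16099 CPM in those 4 WT mice and 4190 CPM in WT mouse 3, which also had 31923 CPM of erythroid markers. Their part in the Cd38, Il2ra and Bst1 values was not tested.

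In FrE, sorted as IgM+ immature cells, the genes for AA4.1 and CD25 had higher levels in every mutant library than in any WT library. Cd93 had 313, 423, 456, 332.5 and 572.5 CPM in mutants, against 157, 134, 60.3, 111 and 120.0 CPM in WT. The log2 fold change was 1.64 ± 0.34 (SE, adjusted p = 0.202). It was called without WT mouse 7 (1.74, adjusted p = 0.0352), without all low-complexity libraries (1.83, adjusted p = 0.0395) and by DESeq2 (1.58, adjusted p = 0.00899). Il2ra had 76.0, 107, 91.8, 142.5 and 82.8 CPM in mutants, against 15.5, 10.9, 32.4, 27.8 and 26.7 CPM in WT. Its log2 fold change was 1.90 ± 0.50 (SE, adjusted p = 0.394), and DESeq2 called it (1.81, adjusted p = 0.0342). Ptprc stood at -0.67 ± 0.26 (SE, adjusted p = 0.893). edgeR thus called 0 of 9 genes tested, as it did 0% of 9662 genes, while 3 of the 9 passed an unadjusted p of 0.05, beside 5.3% of all genes, and DESeq2 called 2. Non-overlapping CPM, seen for Cd93 and Il2ra, held for 1.9% of genes tested. In the low-complexity library of mutant mouse 9 the Cd93 and Il2ra values were read from 14 and 6 counts. Plasma cell markers summed to 2279 to 3098 CPM in mutant FrE and 1238 to 23898 CPM in WT FrE, all 8 being detected in both, and the 4 of mature recirculating B cells to 167 to 462 CPM in mutants and 452 to 836 CPM in WT. The 12 of granulocytes and monocytes, all detected, summed to 32.7 to 71316 CPM in mutants and 40.55 to 6135 CPM in WT. Mutant mice 5 and 9 had 71316 and 21681 CPM of these. Erythroid markers summed to 61.3 to 7515 CPM in mutants and 21.1 to 20679 CPM in WT, highest in WT mouse 7. Those of basophils and mast cells summed to 0 to 879 CPM in mutants and up to 4776 CPM in WT. The part of these lists in the Cd93 and Il2ra values was not tested.

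**Figure D3:**
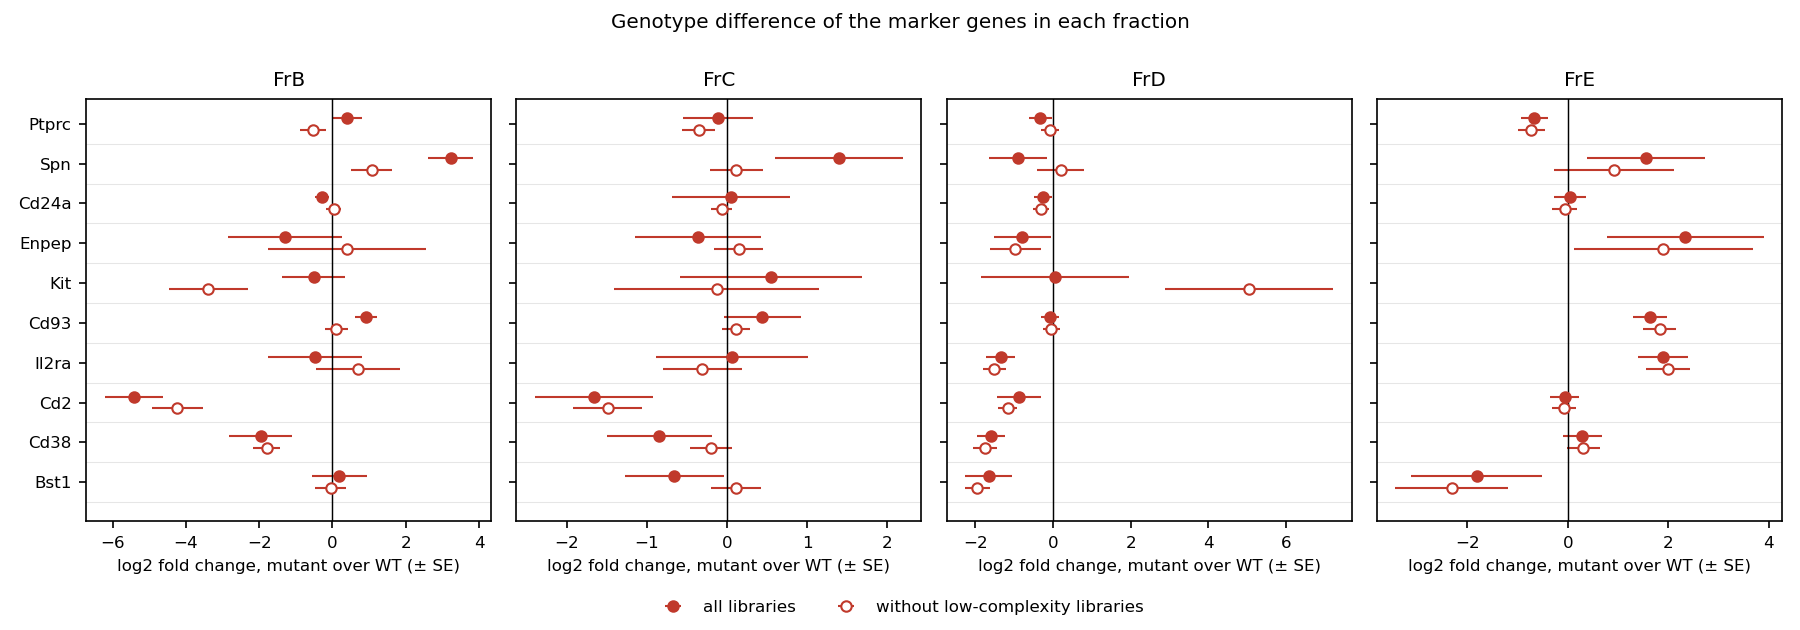
Log2 fold change of mutant over WT (x axis, ± SE) for the 10 genes in each fraction, with all libraries (filled) and without low-complexity libraries (open). Cd2 in FrB lies farthest to the left, at -5.42 with all libraries, and Cd93 and Il2ra lie to the right of 0 in FrE, at 1.64 and 1.90. Kit was not tested in FrE.

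Across the WT fractions 0 of the 10 genes were called in FrC against FrB, where 0.166% of 11439 genes were. Enpep stood at 4.83 ± 1.17 (SE, adjusted p = 0.109), Cd24a at 0.75 ± 0.25 (SE, adjusted p = 0.401) and Cd2 at -1.99 ± 0.51 (SE, adjusted p = 0.141), each without overlap between the fractions. Bst1, at 29.4 to 44.1 CPM in FrC and 48.1 to 108 CPM in FrB, did not overlap either, and this held for 7.54% of genes. DESeq2 called Enpep and Cd2. Without the low-complexity libraries of WT FrD and FrE, which share the estimate of the spread, Enpep, Cd24a and Cd2 were called (adjusted p = 0.0298, 0.0119 and 0.000327). The 8 plasma cell markers summed to 17962 to 53370 CPM in WT FrB and 1643 to 11492 CPM in WT FrC. In WT FrD they summed to 1394 to 2255 CPM and in WT FrE to 1238 to 23898 CPM. Their part in the changes between WT fractions, or in the genotype differences of those changes, was not tested.

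In WT FrD 4 genes rose relative to WT FrC, beside 2.95% of all genes called higher and 5.23% in either direction. The genes for CD25, CD2 and CD38, which pre-B cells are known to display, rose by 3.59 ± 0.63 (Il2ra, adjusted p = 0.00127), 3.64 ± 0.55 (Cd2, adjusted p = 0.000385) and 2.99 ± 0.33 (Cd38, adjusted p = 1.41e-05; log2, SE). Il2ra and Cd38 did not overlap between these fractions, as 12% of genes, while Cd2 overlapped through WT mouse 3 at 14.8 CPM in FrD. Ptprc rose by 1.16 ± 0.28 (SE, adjusted p = 0.0160) and was not called without WT mouse 1 (1.19, adjusted p = 0.0934), mouse 2 (1.09, adjusted p = 0.0949) or mouse 3 (0.85, adjusted p = 0.107). Bst1 stood at 1.61 ± 0.72 (SE, adjusted p = 0.207), or 1.89 and called without low-complexity libraries (adjusted p = 0.000109), and Cd93 at 0.62 ± 0.26 (SE, adjusted p = 0.164). Kit too was called without low-complexity libraries, and lower, at -4.93 (adjusted p = 0.0330). These are changes relative to total endogenous RNA. Scaled to spike-in RNA the median of all genes moved to -2.39, and the same contrast then gave 0.86 for Il2ra, 0.96 for Cd2, 0.54 for Cd38 and -1.07 for Ptprc, none called. On that scale 3 other genes were called lower in WT FrD than in WT FrC, Cd24a at -2.65 (adjusted p = 0.000909), Enpep at -3.88 (adjusted p = 0.00587) and Cd93 at -1.77 (adjusted p = 0.0143).

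Between FrB and FrD, whose CD43 gates are both given, WT FrD had more Il2ra by 3.97 ± 0.64 (log2, SE, adjusted p = 0.00101) and more Cd38 by 2.59 ± 0.33 (adjusted p = 7.67e-05). These were 2 of 10 genes, beside 3.85% of all genes called. Not called were Enpep at 3.26 ± 1.09 (SE, adjusted p = 0.0954), Cd2 at 1.65 ± 0.51 (adjusted p = 0.0693), Cd24a at 0.67 ± 0.25 (adjusted p = 0.130), Cd93 at 0.64 ± 0.26 (adjusted p = 0.169) and Ptprc at 0.62 ± 0.28 (adjusted p = 0.226). Scaled to spike-in RNA neither was called, with Il2ra at 1.77 (adjusted p = 0.107) and Cd38 at 0.76 (adjusted p = 0.304). Without WT mouse 3 Cd2 stood at 1.93 and was called (adjusted p = 0.00785). Without both low-complexity WT libraries 7 genes were called, namely Il2ra, Cd38, Cd2, Cd24a, Enpep, Bst1 and, lower in FrD, Kit at -7.35 (adjusted p = 0.00833). The share of all genes called without these libraries is not given here, and 3.85% belongs to the fit with all libraries.

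In WT FrE 4 genes fell relative to WT FrD, beside 2.43% of all genes called lower and 5.32% in either direction. Cd93 fell by 2.09 ± 0.27 (log2, SE, adjusted p = 6.32e-05), with 157, 134, 60.3, 111 and 120.0 CPM in FrE against 511, 518.5, 392.5, 585 and 441 CPM in FrD. Il2ra fell by 2.90 ± 0.61 (adjusted p = 0.00656), and was not called without WT mouse 1 (-2.79, adjusted p = 0.0542) or mouse 2 (-2.63, adjusted p = 0.0515). Cd38 fell by 1.23 ± 0.31 (adjusted p = 0.0223), and was not called without WT mouse 2 (-1.02, adjusted p = 0.120), mouse 6 (-1.20, adjusted p = 0.104) or mouse 7 (-1.07, adjusted p = 0.0838). Enpep fell by 3.94 ± 1.13 (adjusted p = 0.0435), with 0.0429, 3.28, 0.106, 6.12 and 0.349 CPM in FrE against 17.7, 75.2, 8.63, 24.0 and 19.1 CPM in FrD. Scaled to spike-in RNA 0 of these 4 were called, with Cd93 at -1.82 (adjusted p = 0.0940), Il2ra at -2.58 (0.111), Cd38 at -0.95 (0.470) and Enpep at -3.77 (0.0674). The adjusted p of Enpep was 0.0643 with mouse as a block and 0.0772 to 0.111 when any 1 WT mouse was left out.

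In WT FrE against FrD 8 of the 10 genes passed an unadjusted p of 0.05, beside 21.2% of all genes. Those not called were Ptprc at 0.86 ± 0.28 (SE, adjusted p = 0.0718), Spn at -2.61 ± 0.86 (adjusted p = 0.0770), Bst1 at -1.85 ± 0.73 (adjusted p = 0.133) and Kit at -4.25 ± 2.04 (adjusted p = 0.232). With mouse as a block Spn was called, at -2.89 (adjusted p = 0.0457). Without WT mouse 3 Spn (-3.08, adjusted p = 0.0223) and Ptprc (1.10, adjusted p = 0.0379) were called, and Kit turned to 1.08. Without WT mouse 7 Kit was at -9.64 (adjusted p = 0.0460). Without the low-complexity libraries Ptprc (1.15, adjusted p = 0.00544) and Bst1 (-1.83, adjusted p = 0.000601) were called as well. Ptprc, Enpep, Cd93 and Il2ra did not overlap between these fractions, as did 3.58% of genes. Median log2 fold changes were -1.97 over the 10 genes and 0.01 over all genes.

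In the mutants FrC against FrB gave 0 calls, as for 0% of 11197 genes. At an unadjusted p under 0.05, passed by 5 of the 10 genes and 16% of all genes, Enpep stood at 5.76 ± 1.39 (SE, adjusted p = 0.0762), Cd2 at 1.77 ± 0.63 (adjusted p = 0.159), Cd24a at 1.13 ± 0.49 (adjusted p = 0.260), Spn at -1.65 ± 0.78 (adjusted p = 0.300) and Ptprc at -0.99 ± 0.47 (adjusted p = 0.305). DESeq2 called Cd24a and Enpep, and edgeR called Enpep without mutant mouse 5 (7.51, adjusted p = 0.0206).

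Cd2 rose in mutant FrD, relative to mutant FrC, by 4.43 ± 0.69 (log2, SE, adjusted p = 0.00677), with 264, 262, 202, 193 and 167 CPM in FrD against 15.8, 9.09, 7.63, 2.32 and 0.824 CPM in FrC. It was 1 of 10 genes called, beside 2.97% of all genes, and was at 4.53 without mutant mouse 4 (adjusted p = 0.0656) and 1.88 scaled to spike-in RNA (adjusted p = 0.155). On that scale Spn (-4.55, adjusted p = 0.00551) and Cd24a (-2.37, adjusted p = 0.0473) were called lower instead. Cd38 at 2.26 ± 0.83 (SE, adjusted p = 0.144), Il2ra at 2.19 ± 0.998 (adjusted p = 0.282) and Spn at -1.86 ± 0.79 (adjusted p = 0.227) did not pass. Without low-complexity libraries Il2ra was called, at 2.58 (adjusted p = 0.0215). Against FrB, mutant FrD had more Cd2 by 6.20 ± 0.73 (adjusted p = 4.73e-05) and less Spn, 2 of 10 genes beside 0.982% of all genes. Cd38 at 2.98 ± 0.85 (adjusted p = 0.0785), Il2ra at 3.11 ± 1.03 (adjusted p = 0.127) and Enpep at 3.80 ± 1.27 (adjusted p = 0.132) were not called in that contrast, and without mutant mouse 5 Enpep was (5.52, adjusted p = 0.0380).

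In mutant FrE against mutant FrD 0 of the 10 genes were called and 0 passed an unadjusted p of 0.05, beside 0% called and 5.5% at an unadjusted p under 0.05 among 11197 genes. DESeq2 also called 0 of the 10. Cd93 had 313, 423, 456, 332.5 and 572.5 CPM in mutant FrE against 719, 529, 418, 443 and 544 CPM in mutant FrD. Il2ra had 76.0, 107, 91.8, 142.5 and 82.8 CPM in mutant FrE against 54.1, 119.6, 61.7, 56.0 and 82.1 CPM in mutant FrD. Both overlapped between the fractions, with log2 fold changes of -0.38 for Cd93 and 0.36 for Il2ra. Cd2 lay higher in FrE in each mutant library, at 285 to 475 CPM against 167 to 264 CPM, and Bst1 lower, at 0.205 to 24.8 CPM against 29.3 to 53.3 CPM, as held without overlap for 3.13% of genes in either direction. The low-complexity FrE library of mutant mouse 9 read Cd2 at 285 CPM from 12 counts and Bst1 at 23.7 CPM from 1 count, so its place relative to FrD is uncertain. The other mutant FrE libraries had 329 to 475 CPM of Cd2 and 0.205 to 24.8 CPM of Bst1.

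**Figure D4:**
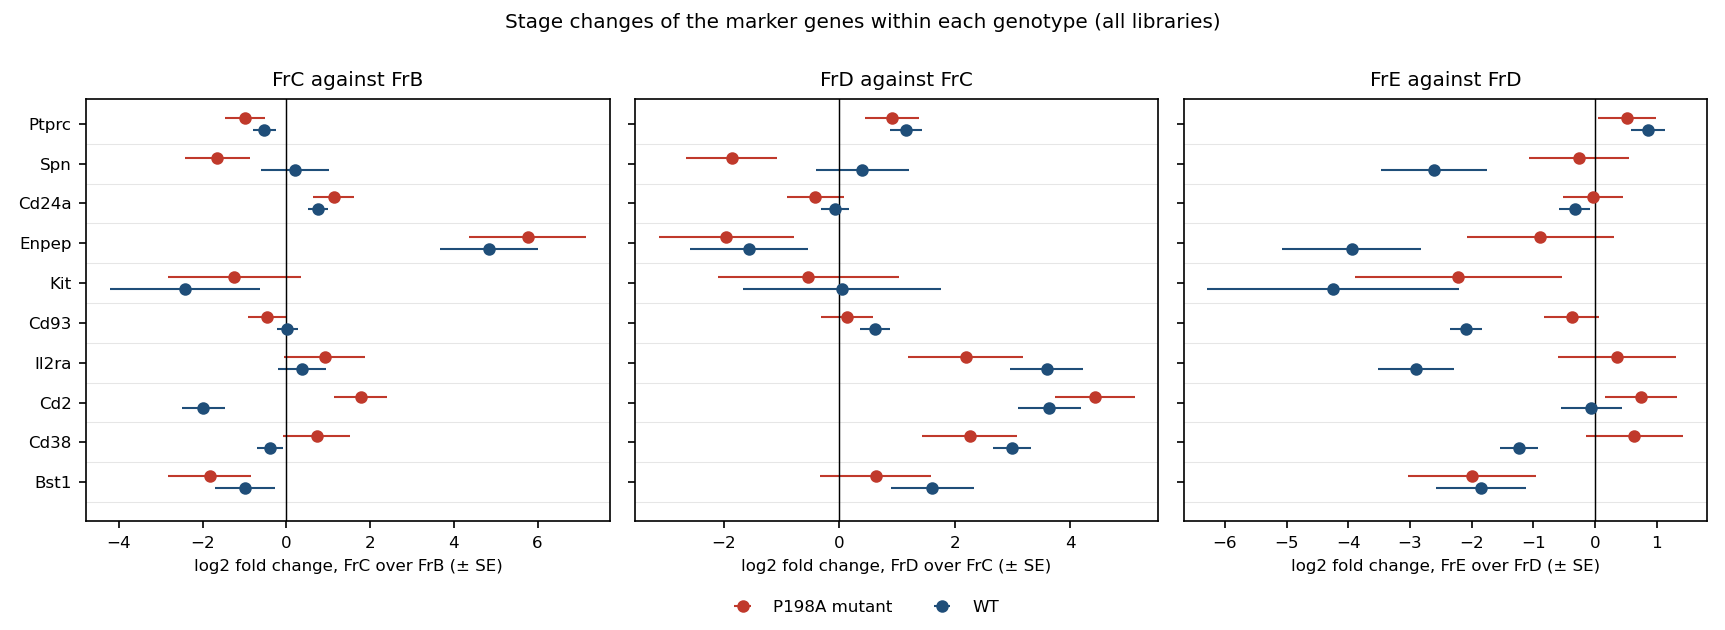
Log2 fold change of each fraction over the one before it (x axis, ± SE) within the mutant (red) and WT (blue) libraries, with all libraries. In FrE against FrD, Cd93 and Il2ra lie near 0 in the mutants and at -2.09 and -2.90 in WT.

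The difference between the genotypes' changes was tested directly over all 40 libraries, as the mutant change minus the WT change. For FrC against FrB it was 3.74 ± 0.82 for Cd2 (log2, SE, adjusted p = 0.0395), 1 of 10 genes called beside 0.524% of 12397 genes. With mouse as a block the adjusted p was 0.803, without low-complexity libraries the value was 2.70 (adjusted p = 0.702), and the call was lost in 11 of 16 alternatives, including each one that left out a WT mouse (adjusted p = 0.145 to 0.172), mutant mouse 4 (0.0513) or mutant mouse 9 (0.525). For FrD against FrB it was 4.52 ± 0.81 for Cd2 (adjusted p = 0.0137), 1 of 10 genes called beside 0.194% of all genes. Without low-complexity libraries that value was 3.02 (adjusted p = 0.176), and scaled to spike-in RNA 4.34 (adjusted p = 0.194). It was not called without WT mouse 1 (0.0510) or 6 (0.0632), or without mutant mouse 4 (0.0558) or 9 (0.0507), adjusted p in each case. Spn at -4.15 ± 1.18 (SE, adjusted p = 0.0799) and Cd93 at -1.02 ± 0.49 (adjusted p = 0.292) did not pass, and Spn was called without mutant mouse 5 (-4.67, adjusted p = 0.0324).

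For FrD against FrC 0 of the 10 genes were called, beside 2.98% of all genes. At an unadjusted p under 0.05 there were 0 of the 10, beside 14% of all genes, and DESeq2 called 0. For FrE against FrD the difference was 1.69 ± 0.49 for Cd93 (log2, SE, adjusted p = 0.107), 3.23 ± 1.15 for Il2ra (adjusted p = 0.212) and 1.86 ± 0.88 for Cd38 (adjusted p = 0.441), so that 0 genes were called, beside 0.153% of all genes. Those 3 passed an unadjusted p of 0.05, beside 10.2% of all genes, and DESeq2 called Cd93. Without low-complexity libraries the 3 were called, at 1.89 (adjusted p = 0.00223), 3.53 (adjusted p = 0.00528) and 2.06 (adjusted p = 0.00632). The share of all genes called in that fit is not given here. By edgeR with all libraries the fall of Cd93, Il2ra and Cd38 in WT FrE is not shown to differ from the change in mutants. For Cd93 this depends on the method, since DESeq2 called it. Without the low-complexity libraries the difference is called by edgeR for the 3 genes.

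Of 30 further surface genes of B cell stages, 28 were in the table. The list was chosen with earlier results of these data known, so its counts beside the shares of all genes are descriptions. In FrB 2 of the 28 were higher in mutants, the surrogate light chain genes Vpreb1 (1.18 ± 0.27, SE, adjusted p = 0.0173) and Vpreb2 (1.42 ± 0.33, adjusted p = 0.0181). In the same contrast 7 were lower, among them the B cell receptor signalling chains Cd79a (-2.22 ± 0.43, adjusted p = 0.00878) and Cd79b (-1.47 ± 0.28, adjusted p = 0.00767). The others were Ms4a1, which encodes CD20 (-3.24 ± 0.87, adjusted p = 0.0354), the IgE receptor gene Fcer2a (-6.84 ± 1.48, adjusted p = 0.0138), Ly6a (-3.60), Cd81 (-1.57) and Cd37 (-1.03). Over all genes 5.64% were higher and 1.72% lower in that contrast. The median of the 28 was -1.10, beside 0.11 over all genes. In FrC, FrD and FrE edgeR called 0 of the 26, 27 and 28 tested between genotypes.

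Across WT fractions Ly6d was lower in FrC than in FrB (-1.61 ± 0.25, SE, adjusted p = 0.00400), 1 of 28 beside 0.166% of all genes. In FrD against FrC 8 of 28 were higher, Cxcr4, Cd55, Cd44, Cd40, Cd69, Cd79b, Cd180 and Ly6d, at 1.31 to 3.28, and Vpreb1 was lower (-3.66 ± 0.96, adjusted p = 0.0272), where 2.95% of all genes were higher and 2.28% lower. In FrE against FrD 6 were higher, with Ms4a1 at 4.13 ± 0.43 (adjusted p = 8.80e-06), and 2 lower, where 2.88% of all genes were higher and 2.43% lower. The lower ones were Cxcr4, the receptor that holds precursors in the marrow (-2.16 ± 0.37, adjusted p = 0.00109), and Il7r, the IL-7 receptor chain (-4.29 ± 0.53, adjusted p = 5.11e-05). In FrD against FrB 4 were higher and 3 lower, beside 3.85% of all genes in either direction. In the mutants 0 of 28 were called in FrC against FrB, FrD against FrC or FrE against FrD, and 1 in FrD against FrB, Cd79b (2.18 ± 0.55, adjusted p = 0.0491), beside 0.982% of all genes. The change of Il7r in FrE against FrD differed between genotypes, by 3.25 ± 0.72 (mutant minus WT, SE, adjusted p = 0.0405), 1 of 28 genes beside 0.153% of all genes, with 0 in the other 3 such contrasts.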

How the data were processed

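The authors deposited 1 table of raw whole-number counts per gene. As tools, the submitters' processing notes name HISAT2 2.1.0, featureCounts 1.4.6 of Subread and DESeq2, with build mm10. No annotation or strand setting was given in the sources used here, and reads of antisense or overlapping genes cannot be separated. Of its 22050 rows 92 were ERCC spike-ins, which stayed out of library sizes. Of 21958 genes 21728 matched GENCODE M21, the source of positions and exonic lengths. CPM is relative to the endogenous total. Tests used edgeR 4.0.16 (R 4.3.3; glmQLFit with robust estimation, TMM scaling, filterByExpr at 10 counts and a total of 15) with Benjamini-Hochberg adjustment over all genes tested, called below 0.05. SE is the log2 fold change divided by the square root of F. Genotypes were compared within a fraction, fractions within a genotype, and their difference over all 40 libraries. Alternatives were DESeq2 1.42.0, RLE scaling, ERCC scaling, no filter, a second-index covariate, a fit on all libraries, a mouse block, each mouse left out, and the low-complexity libraries left out. Scripts were tested on simulated data.

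The number in a title names the mouse, which pairs its fractions. Same-mouse deviations correlated by a median of -0.022 to 0.094 over 6 steps. No pair of libraries was identical. The markers and lists were chosen with earlier results of these data known. Values are printed for each gene and comparison with an unadjusted p under 0.05. Reads were amplified and carried no molecular identifiers, so precision from counts covers counting error only. Library totals of 42111 to 43372070 set that counting error. Mutant mouse 9 FrE, the smallest, reads Spn from 3 counts.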

Additional observations from a re-analysis of the deposited data

Results flagged for a closer look

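In 9 of 80 groups of 5 libraries 1 library stood apart from the others by Dixon's ratio above 0.71, where chance flags about 1 in 20 for normally distributed values. In 6 of the 9 that library was of low complexity. Ptprc in WT FrB was at 471 CPM in mouse 6, with the others at 266 to 294 CPM. Kit was at 4.51 CPM in mutant FrE of mouse 5 and at 1.22 CPM in WT FrE of mouse 7, with the others at 0, and at 16.3 CPM in WT FrD of mouse 3. In the Kit FrE groups the others at 0 fix the ratio at 1, so the chance rate does not apply to them. Cd93 in mutant FrC was at 25.0 CPM in mouse 9, with the others at 381 to 538 CPM. Cd2 was at 21.6 CPM in WT FrC of mouse 2, with the others at 33.4 to 39.5 CPM, and at 14.8 CPM in WT FrD of mouse 3, with the others at 335 to 627 CPM. Bst1 was at 5.34 CPM in WT FrD of mouse 3, with the others at 101.5 to 179 CPM, and at 0.174 CPM in WT FrE of mouse 7, with the others at 21.6 to 47.3 CPM.

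For Cd2 the interaction test with all libraries called a difference between genotypes in the change between fractions, 3.74 in FrC against FrB and 4.52 in FrD against FrB (log2, mutant change minus WT change). The FrC against FrB call was lost with mouse as a block (adjusted p = 0.803) and in 11 of 16 alternatives. The FrD against FrB call was lost in 6 of 16, and neither was called without low-complexity libraries.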

How the results depend on the processing

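Shares of all genes called under the alternatives are not given here. The following are numbers of the 10 genes called under an alternative, for the comparisons where that number moved by over 1.5 times. By DESeq2 it was 2 in WT FrC against FrB, 4 in WT FrD against FrB, 7 in WT FrE against FrD, 2 for the genotype difference in FrD against FrB, 1 for that in FrE against FrD, 2 for the genotype effect in FrD, 2 for that in FrE, 2 in mutant FrC against FrB and 5 in mutant FrD against FrB. Without low-complexity libraries it was 3 in WT FrC against FrB, 7 in WT FrD against FrB, 0 for the genotype differences in FrC against FrB and FrD against FrB, 3 for that in FrE against FrD, 3 for the genotype effect in FrD, 1 for that in FrE, 1 in mutant FrD against FrB and 2 in mutant FrD against FrC. Under ERCC scaling it was 0 in WT FrD against FrB, 0 in WT FrE against FrD, 0 for the genotype differences in FrC against FrB and FrD against FrB, and 2 in mutant FrD against FrC, Spn and Cd24a, both lower, in place of Cd2, higher. In WT FrD against FrC it was 3 under ERCC scaling, all lower, in place of the 4 higher. Without a filter it was 0 for the genotype difference in FrC against FrB. With the replicate block, mouse as a block, it was 0 for the genotype difference in FrC against FrB and 1 in mutant FrD against FrB. The block also changed the calls of Enpep and Spn in WT FrE against FrD given above, and it changed no other call. RLE scaling, the second-index covariate and the fit on all 40 libraries moved no such number by over 1.5 times, and Cd2 and Spn in FrB were called with the index covariate (-5.42 and 3.02, adjusted p = 0.00975 and 0.0316).

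Leaving out 1 mouse gave 0 to 1 calls in WT FrC against FrB, 2 to 3 in WT FrD against FrB, 3 to 4 in WT FrD against FrC and 1 to 5 in WT FrE against FrD. It gave 0 to 1, 0 to 2, 0 and 0 for the genotype differences in FrC against FrB, FrD against FrB, FrD against FrC and FrE against FrD. It gave 2 to 3, 0, 0 to 3 and 0 to 1 for the genotype effects in FrB, FrC, FrD and FrE. For the mutants it gave 0 to 1 in FrC against FrB, 1 to 3 in FrD against FrB, 0 to 1 in FrD against FrC and 0 in FrE against FrD.

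Values turned sign under ERCC scaling, which moved the median of all genes to -1.74 in WT FrD against FrB, -2.39 in WT FrD against FrC and -2.29 in mutant FrD against FrC. In WT FrD against FrB Ptprc was then at -0.82, Cd24a at -1.19, Cd93 at -1.21 and Cd2 at -0.25. In WT FrD against FrC Ptprc was at -1.07, Cd93 at -1.77 and Bst1 at -1.002. In mutant FrD against FrC Il2ra was at -0.96 and Cd38 at -0.28. Kit in WT FrE against FrD ranged from -9.64 to 1.08 with a mouse left out. The cause of these shifts was not tested. Values of Kit and Enpep near 0 rest on few counts, also in deep libraries, and depth limits the values of mutant mouse 9 FrE.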

Other observations

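Over the 20 WT libraries the genes whose log2(CPM + 1) went most closely with each marker called in a WT comparison of fractions were found among 8355 genes with a mean of at least 10 CPM. The libraries share fraction and depth, and the correlations are descriptions. For Ptprc they included Mcl1 (Pearson r = 0.924) and Slfn8 (0.891). For Enpep they were Arvcf (0.870), Pipox (0.825) and Ssrp1 (0.780). Cd93 went with Ckap2l (0.903), H2afx (0.886) and Cenpe (0.885), and the last of these encodes a kinetochore motor. Il2ra went with Pafah1b3 (0.832), Mylip (0.831) and B4galt1 (0.817). Cd2 went with Scimp (0.922), Mndal (0.911) and Cd79b (0.904), and Cd38 with Rgs2 (0.939), Ifi209 (0.922) and Btg2 (0.913). Mean levels of Arvcf in WT FrB, FrC, FrD and FrE were 4.15, 28.5, 10.1 and 1.68 CPM, with the highest in FrC, as for Enpep. Those of Ckap2l were 186, 265, 275 and 42.4 CPM, lowest in FrE as for Cd93, and those of Rgs2 were 170, 188, 1079 and 575 CPM, highest in FrD as for Cd38.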
